A study of Nicotiana tabacum with 6 samples.

Results

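Tobacco genes of gibberellin, cytokinin and brassinosteroid metabolism, perception and response were followed in imbibed seeds and seedlings that express sunflower heat stress factors. Members were chosen by the first protein description given for each gene identifier, which had to name gibberellin, a DELLA protein, ent-copalyl or ent-kaurene, cytokinin, a response regulator or histidine kinase of the phosphorelay, or brassinosteroid, and must not name auxin or abscisic acid. The rule uses no expression value and found 114 of 31766 identifiers. Of these, 48 belong to gibberellin, 48 to cytokinin and its phosphorelay, and 8 to brassinosteroid. The other 10 are pseudo response regulators, mainly of the circadian clock, that the rule takes in by name.

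RNA came from 6 libraries of N. tabacum var. Xanthi in 3 comparisons of a transgenic (T) library with 1 of nontransgenic (NT) siblings. DS10:A9 seeds carried HaHSFA9 and DS10:A4a seeds HaHSFA4a, both under the seed-specific DS10 promoter, and 35S:A9 seedlings carried HaHSFA9 under the 35S promoter. Seeds of all genotypes were sampled 1 day after imbibition began and seedlings at 3 weeks. Per the paper, seeds were imbibed in the dark and seedlings grew in daily cycles of light and dark. Tissue, age and light thus differ together between seeds and seedlings. The NT libraries were seeds, with a separate library for each seed comparison, and seedlings. Each library was a mix of 4 RNA samples from sibling lines. With 1 library for each condition, no difference given here has a replicate check. In such whole seeds or seedlings, fewer cells of a type and less RNA per cell cannot be told apart.

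The deposited tables list genes by a threshold on the log2 fold, at 0.6 for higher and -0.5 for lower genes, and not every gene measured. There are A4a-up and A4a-down tables for DS10:A4a seeds, and an A9up table of genes higher in both DS10:A9 seeds and 35S:A9 seedlings. Levels are in FPKM, which divides the fragments of a gene by its transcript length and by library depth. Depth, recovered from the steps between low FPKM values, was between 11360000 and 16360000 fragments. From the fragments behind each FPKM pair a 95% interval was computed for the log2 fold by the exact binomial method of Clopper and Pearson, and is called the counting interval. It covers counting error between the libraries of a pair and not the variation between plants or lines. A gene is called higher or lower where it is in a table, its log2 fold is at or past the threshold and this interval leaves out 0. As a check of tissue, 11 chlorophyll a-b binding proteins in the A9up table had a median FPKM of 242 in 35S:A9 seedlings and 117 in NT seedlings, and were at most at 2.85 in DS10:A9 seeds and 0.55 in NT seeds. In the A4a tables, 29 such proteins had a median of 0.18 in DS10:A4a seeds and 0.28 in NT seeds and reached 38.0 and 56.0 in the same order, so that some of them were abundant in seeds too. No late embryogenesis abundant, oleosin or storage protein was in that table, and 6 were in the A4a tables, at FPKM of up to 20.5 in DS10:A4a seeds and 18.1 in NT seeds.

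Gibberellins promote germination and stem growth. They bind the receptor GID1, which then targets DELLA proteins, repressors of growth, for destruction. Their level is set by synthesis, in which 20-oxidases and 3-oxidases make the active forms, and by 2-oxidases, which inactivate them. Cytokinins, hormones of cell division and greening, are released by LOG enzymes and degraded by cytokinin dehydrogenases. They bind histidine kinases at membranes, and phosphate passes from these through phosphotransfer proteins to response regulators, of which type B activate transcription and type A repress the response. Brassinosteroids promote cell elongation through the receptor kinase BRI1 and its partner BAK1. These roles were worked out largely in Arabidopsis and rice.

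The A4a tables held 107 of the 114 members, 53 higher and 54 lower in DS10:A4a seeds than in NT seeds. The higher share, 49.5%, stood beside 46.0% of all 29629 genes in these tables. By the counting interval, 12 members (11.2%) were called higher and 16 (15.0%) lower, against 9.03% and 11.7% of all genes. The shares of members were thus near those of all genes, and the intervals of the other 79 members included 0. The median log2 fold, over genes above 0 in both libraries, was -0.51 for members and -0.57 for all genes. The tables list no fold between -0.5 and 0.6, so these medians lie at the edge of that gap and do not describe a typical change. Most members were weakly expressed, 80 of them below an FPKM of 1 in both libraries and 48 on fewer than 10 fragments in the pair. Among the 27 members that reached an FPKM of 1 in a library, 8 were higher and 19 lower (29.6% higher, against 40.4% of all such genes), and 6 (22.2%) and 12 (44.4%) were called, against 23.5% and 31.7% of all such genes.

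By hormone, 2 gibberellin genes were called higher and 10 lower of the 43 listed. For cytokinin these counts were 4 and 3 of 47, for brassinosteroid 2 and 2 of 8, and for the pseudo response regulators 4 and 1 of 9. Of the 16 lower calls, 10 were thus gibberellin genes. Higher calls occurred in each group but not in proportion to its size, with 4 among 9 pseudo response regulators and 2 among 43 gibberellin genes. Of all genes in these tables, 9.03% were called higher and 11.7% lower. The groups also differed in level. An FPKM of 1 in a library was reached by 15 of 43 gibberellin and 3 of 47 cytokinin genes. For brassinosteroid it was reached by 5 of 8, and for the pseudo response regulators by 4 of 9. Over all genes, calls in both directions were more frequent at that level. Higher calls were 23.5% of such genes against 9.03% without this floor, and lower calls 31.7% against 11.7%. Whether the hormones differ in calls at equal level was not tested.

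**Figure D1:**
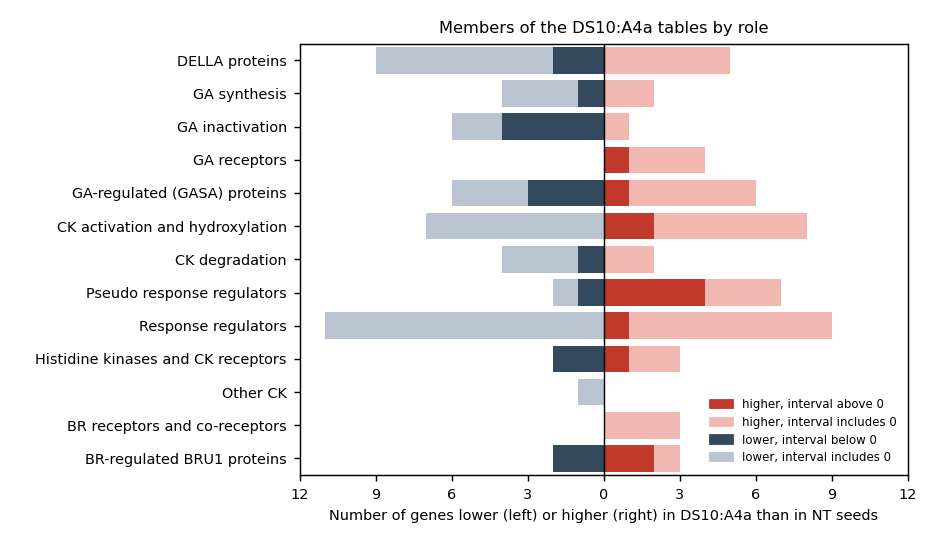
Number of members in the A4a tables by role, with genes at a lower FPKM in the T library to the left of 0 and genes at a higher one to the right. Dark bars are genes whose counting interval leaves out 0. The 4 GID1 receptors all lie to the right, and 6 of 7 gibberellin-inactivating enzymes lie to the left.

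Of the enzymes that inactivate gibberellins, 6 of 7 listed were lower in DS10:A4a seeds and 4 of these were called. The pair described as gibberellin 2-beta-dioxygenase 2 was the most abundant. Its copy gene_81308 was at an FPKM of 2.18 in DS10:A4a seeds and 3.54 in NT seeds, a log2 fold of -0.70 (-1.19 to -0.22, the counting interval as given in parentheses from here on). The other copy, gene_54407, was at 1.53 in DS10:A4a seeds and 2.41 in NT seeds, a log2 fold of -0.66 (-1.23 to -0.09). The best protein matches of these copies are from N. sylvestris and N. tomentosiformis, the parent species of allotetraploid tobacco, so both parental copies were lower, although reads can be shared between such copies. Gibberellin 2-oxidase 1 (gene_53584) rested on 1 fragment in DS10:A4a seeds and 12 in NT seeds, a log2 fold of -3.49 with a wide interval of -9.01 to -0.83. The 2-beta-dioxygenase 1-like gene_17765 had 0 fragments in DS10:A4a seeds and 6 in NT seeds. A lower gene without a call, the 2-beta-dioxygenase 8-like gene_53684, had 0 fragments in DS10:A4a seeds and 2 in NT seeds. Its KEGG entries name a GMP synthase and a gibberellin 20-oxidase, an enzyme of synthesis. The single higher gene, the 2-beta-dioxygenase 8-like gene_42755, was seen by 1 fragment in DS10:A4a seeds and none in NT seeds.

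Enzymes of gibberellin synthesis were also mostly lower in the A4a tables, 4 of 6, with 1 call. Ent-copalyl diphosphate synthase (gene_40466), which makes the first committed precursor, was at an FPKM of 0.1 in DS10:A4a seeds and 0.57 in NT seeds, on 5 and 28 fragments. Its log2 fold was -2.51 (-4.22 to -1.10). The 20-oxidase genes gene_78951 (0.88 in DS10:A4a seeds and 1.55 in NT seeds) and gene_83238 (0.43 and 0.86, in the same order) had log2 folds of -0.82 and -1.0, with intervals that included 0. Both a synthesis step and the inactivation step thus had genes called lower, and no enzyme of either step was called higher.

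The 4 GID1 receptor genes listed were all higher in DS10:A4a seeds and 1 was called. The GID1B-like gene_18672 was at an FPKM of 0.38 in DS10:A4a seeds and 0.1 in NT seeds, on 12 and 3 fragments, a log2 fold of 1.93 (0.11 to 4.46). The most abundant receptor, gene_46434, was at 1.84 in DS10:A4a seeds and 0.92 in NT seeds, a log2 fold of 1.00 whose interval of -0.17 to 2.25 included 0. The other GID1B-like genes, gene_29605 and gene_46495, rested on 2 fragments in DS10:A4a seeds and 1 in NT seeds each.

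Of the 14 DELLA genes, 5 were higher and 9 lower in DS10:A4a seeds, and the 2 most abundant were called lower. The GAI-like gene_75286 was at an FPKM of 4.98 in DS10:A4a seeds and 9.13 in NT seeds, a log2 fold of -0.87 (-1.40 to -0.36). The GAI-like gene_43541 was at 4.99 in DS10:A4a seeds and 8.22 in NT seeds, a log2 fold of -0.72 (-1.19 to -0.25). No DELLA gene was called higher. Among the higher ones, the GAI-like gene_28866 had the most fragments, 19 in DS10:A4a seeds and 10 in NT seeds, with an interval of -0.26 to 2.19. The transcript models of these genes run from 121 bases (gene_22934) to 2464 bases (gene_27296). The called ones have 834 bases (gene_43541) and 679 bases (gene_75286), against 1835 for gene_28866. Whether short models are pieces of the same gene was not tested, so the counts may not be of separate genes.

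Gibberellin-regulated (GASA) proteins, small cysteine-rich peptides first known as targets of the hormone, divided evenly, 6 higher and 6 lower, with 1 and 3 called. They held the most abundant gene of all members. The GASA 1-like gene_5402 was at an FPKM of 97.7 in DS10:A4a seeds and 57.0 in NT seeds, a log2 fold of 0.78 (0.61 to 0.96). The next most abundant, the GASA 3-like gene_15428, moved the other way, with 47.7 in DS10:A4a seeds and 67.5 in NT seeds, a log2 fold of -0.50 (-0.66 to -0.34) that lies just inside the table's threshold. Of 3 GASA 11-like genes, 2 were called lower. The gene matched to N. sylvestris, gene_1126, was at 0.8 in DS10:A4a seeds and 3.64 in NT seeds, a log2 fold of -2.19 (-3.49 to -1.05). One of those matched to N. tomentosiformis, gene_54752, was at 0.96 in DS10:A4a seeds and 3.97 in NT seeds, a log2 fold of -2.05 (-3.14 to -1.06). The remaining one, gene_42527, was in the A4a-up table on 2 fragments in DS10:A4a seeds and 1 in NT seeds. Genes described as gibberellin-regulated therefore included calls in either direction. Whether they respond to gibberellin in these seeds was not tested.

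**Figure D2:**
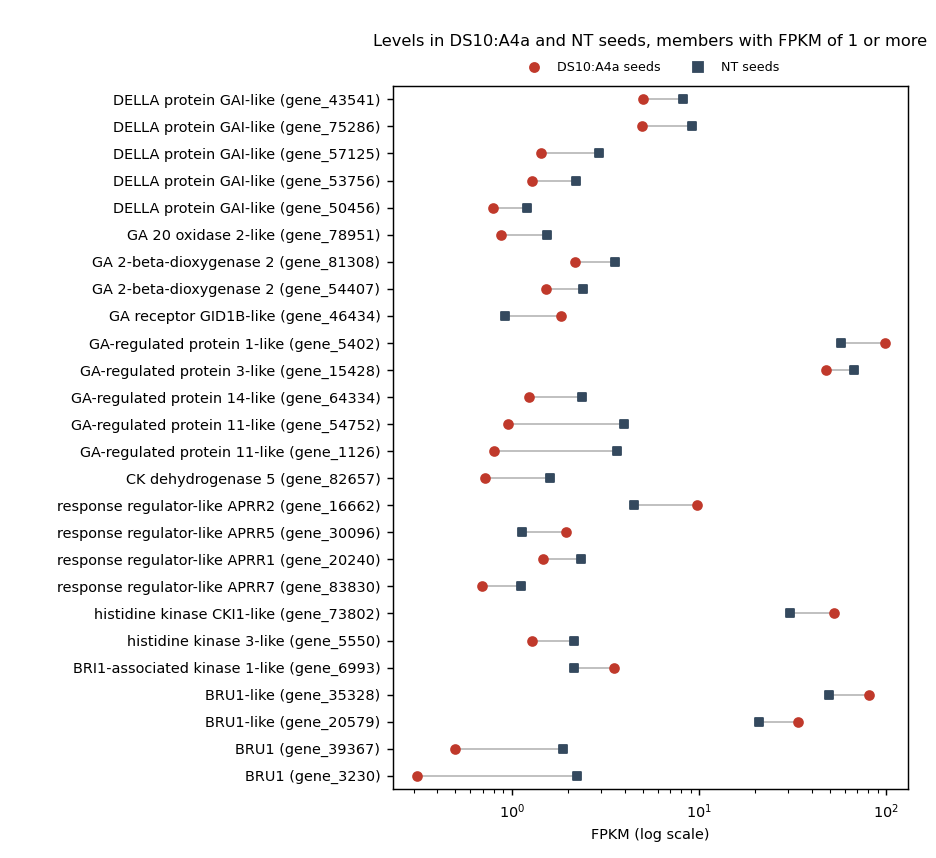
FPKM (log scale) in the DS10:A4a and NT seed libraries of the members that reached an FPKM of 1 in a library, grouped by role. A 27th such gene, a DELLA listed at 0 in DS10:A4a seeds, is left out. Genes above 10 are 5 in number: GASA 1-like, CKI1-like and both BRU1-like genes, higher in DS10:A4a, and GASA 3-like, lower.

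The most abundant cytokinin gene was a histidine kinase. The CKI1-like gene_73802 was at an FPKM of 52.4 in DS10:A4a seeds and 30.7 in NT seeds, on 2798 and 1629 fragments, a log2 fold of 0.77 (0.69 to 0.86). In Arabidopsis CKI1 is a histidine kinase of the same phosphorelay that acts without binding the hormone and is needed in the female gametophyte. The histidine kinase 3-like gene_5550, which resembles a cytokinin receptor of Arabidopsis, was at 1.29 in DS10:A4a seeds and 2.14 in NT seeds, a log2 fold of -0.73 (-1.23 to -0.24). Histidine kinase 1 (gene_1068), whose Arabidopsis namesake is an osmosensor and not a cytokinin receptor, was at 0.04 in DS10:A4a seeds and 0.29 in NT seeds, a log2 fold of -2.86 (-4.69 to -1.18). Of the 5 histidine kinases 1 was thus called higher and 2 lower.

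The 20 response regulators were all below an FPKM of 1, and 9 were higher and 11 lower in DS10:A4a seeds. The only one called was the ARR9-like gene_52505, of type A in Arabidopsis, at 0.44 in DS10:A4a seeds and 0.04 in NT seeds on 10 and 1 fragments, a log2 fold of 3.46 (0.50 to 8.76). By the KEGG annotation, 7 of 13 type A and 2 of 6 type B genes were higher. The type B entry is the first or only one for 4 of these 6 and stands beside entries for unrelated proteins in the others. The most abundant type B genes were ARR12-like gene_954, at 0.51 in DS10:A4a seeds and 0.3 in NT seeds, and ARR2 gene_39467, at 0.33 in DS10:A4a seeds and 0.55 in NT seeds. The intervals of both included 0. None of the 6 was called.

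Of 13 LOG genes listed, which release free cytokinin bases from their ribotides, 7 were higher in DS10:A4a seeds and 2 of these were called, both on few fragments. The LOG1-like gene_43970 was at an FPKM of 0.58 in DS10:A4a seeds and 0.05 in NT seeds (11 and 1 fragments), a log2 fold of 3.54 (0.67 to 8.88), and LOG8 (gene_7000) had 6 fragments in DS10:A4a seeds and 0 in NT seeds. Both NT seed libraries list the LOG1-like gene, and they differed: its FPKM was 0.05 in the NT library set against DS10:A4a and 0.46 in the one set against DS10:A9, a log2 ratio of -3.20 (-8.63 to -0.06). The LOG3-type genes gene_33167 (0.67 in DS10:A4a seeds and 0.43 in NT seeds) and gene_5560 (0.54 and 0.18, in the same order) were the most abundant of the LOG genes, with intervals that included 0. None of the LOG genes was called lower.

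Cytokinin dehydrogenases were 2 higher and 4 lower, and 1 was called. Cytokinin dehydrogenase 5 (gene_82657, matched to N. sylvestris) was at an FPKM of 0.72 in DS10:A4a seeds and 1.6 in NT seeds, a log2 fold of -1.15 (-2.01 to -0.39). The gene matched to N. tomentosiformis, gene_81132, was at 0.49 in DS10:A4a seeds and 0.79 in NT seeds, a log2 fold of -0.69 whose interval of -1.58 to 0.21 included 0, and a shorter model, gene_82669, had 1 fragment in DS10:A4a seeds and 3 in NT seeds. Cytokinin-regulated kinase 1 (gene_17936) was seen by 1 fragment in DS10:A4a seeds and 4 in NT seeds.

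The pseudo response regulators resemble phosphorelay proteins by name but belong in Arabidopsis mainly to the circadian clock. Of 9 listed, 7 were higher in DS10:A4a seeds, and 4 were called higher and 1 lower. APRR2 (gene_16662) was at an FPKM of 9.7 in DS10:A4a seeds and 4.52 in NT seeds, a log2 fold of 1.10 (0.76 to 1.47). APRR2 is set apart from the clock members in Arabidopsis, and its KEGG annotation includes the type B family. APRR5 (gene_30096) was at 1.94 in DS10:A4a seeds and 1.13 in NT seeds, a log2 fold of 0.78 (0.28 to 1.29), and APRR7 (gene_19898) at 0.89 and 0.41 in the same order, a log2 fold of 1.12 (0.23 to 2.08). A further APRR2 (gene_70878) was at 0.36 in DS10:A4a seeds and 0.18 in NT seeds, and its model, the longest of all members at 6015 bases, carries the KEGG entry of an unrelated enzyme beside that of the type B family. APRR1 (gene_20240), the clock gene also called TOC1 in Arabidopsis, was at 1.47 in DS10:A4a seeds and 2.33 in NT seeds, a log2 fold of -0.66 (-1.11 to -0.23). The other APRR1 genes were in the A4a-up table, gene_56676 at a log2 fold of 0.89 and gene_56687 at 0.62, with intervals that included 0. Without the pseudo response regulators the counts of called members were 8 higher and 15 lower of 98.

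Brassinosteroid members fell into receptors and BRU1 proteins. BRU1 was named as a brassinosteroid-induced gene of soybean, and the KEGG annotation gives the BRU1 genes described here as xyloglucan transferases, enzymes that remodel the cell wall. Of the 5 BRU1 genes, 2 were called higher and 2 lower. The most abundant ones were higher: gene_35328 was at an FPKM of 80.7 in DS10:A4a seeds and 49.5 in NT seeds, a log2 fold of 0.70 (0.59 to 0.82), and gene_20579 at 33.9 and 20.9 in the same order, a log2 fold of 0.70 (0.50 to 0.90). A pair at lower FPKM was called lower. Its gene matched to N. tomentosiformis, gene_3230, was at 0.31 in DS10:A4a seeds and 2.24 in NT seeds, a log2 fold of -2.85 (-4.37 to -1.61), and its gene matched to N. sylvestris, gene_39367, at 0.5 and 1.88 in the same order, a log2 fold of -1.91 (-3.35 to -0.66). The 5th, gene_4372, was the weakest in NT seeds and in the A4a-up table, at 0.54 in DS10:A4a seeds and 0.3 in NT seeds, a log2 fold of 0.85 (-0.89 to 2.77).

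All 3 brassinosteroid receptors and co-receptors listed were in the A4a-up table, without a call. The BAK1-like gene_6993, with a model of 466 bases, was at an FPKM of 3.51 in DS10:A4a seeds and 2.16 in NT seeds, a log2 fold of 0.70 (-0.31 to 1.78). The receptor kinase-like gene_15103 had 8 fragments in DS10:A4a seeds and 4 in NT seeds, and gene_80833 had 5 and 3 in the same order.

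**Figure D3:**
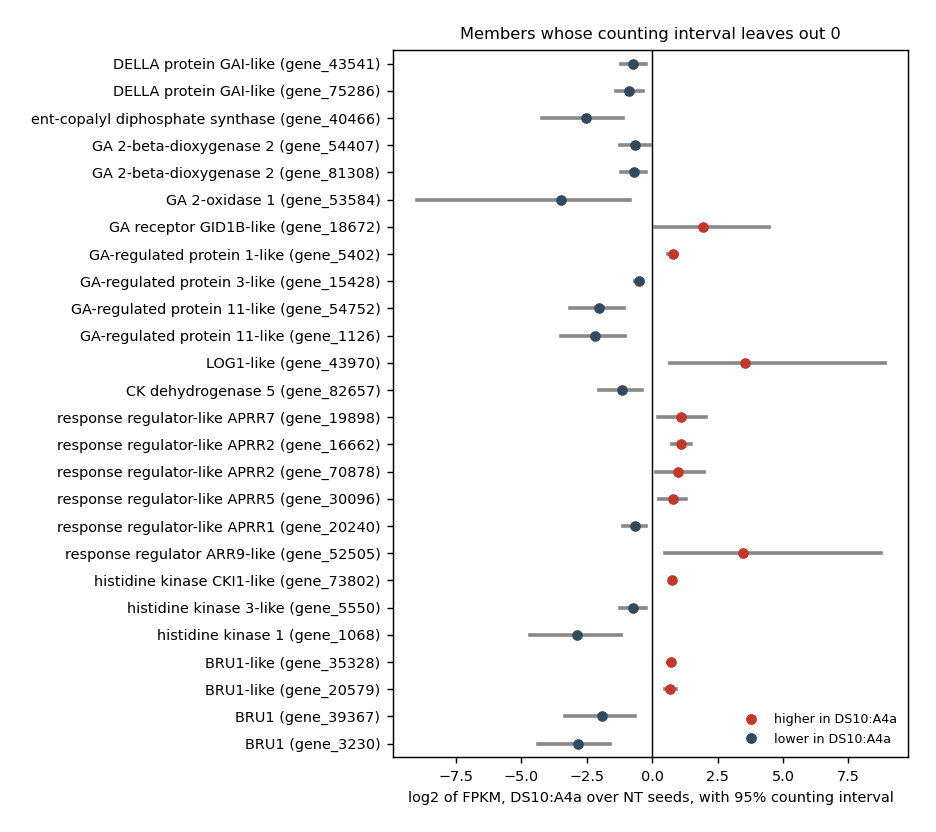
Log2 of FPKM in DS10:A4a over NT seeds for the called members above 0 in both libraries, with the 95% counting interval as a line. Abundant genes such as BRU1-like gene_35328 (0.59 to 0.82) have short intervals, and genes seen by 1 fragment in a library, such as LOG1-like gene_43970 (0.67 to 8.88), have long ones.

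Other genes of these pathways, which the rule leaves out, were counted from a list of neighbours. Of 34 in the A4a tables, 12 were higher and 22 lower, with 3 and 6 called. Of all genes in these tables, 46.0% were higher, and 9.03% were called higher and 11.7% lower. Whether the neighbours differ from all genes was not tested. All 6 histidine-containing phosphotransfer proteins listed, the link between histidine kinases and response regulators, were lower and 2 were called: gene_78846 was at an FPKM of 3.02 in DS10:A4a seeds and 4.39 in NT seeds, and gene_80856 at 0.63 and 1.85 in the same order. Both genes of scarecrow-like protein 3, a GRAS protein that opposes DELLA in Arabidopsis, were called lower, gene_82333 at 7.89 in DS10:A4a seeds and 12.5 in NT seeds and gene_10541 at 14.4 and 20.7 in the same order. On the brassinosteroid side, the directions were mixed, with 4 synthesis genes higher and 3 lower, 1 BES1/BZR1 gene higher and 2 lower, and 1 shaggy-related kinase higher and 2 lower. The synthesis gene DET2 (gene_43024) was called higher, the single call of its list, at 2.43 in DS10:A4a seeds and 1.4 in NT seeds. The BES1/BZR1 homolog gene_12219, from a family of factors that carry out the response, was the single call of its list, higher at 1.8 in DS10:A4a seeds and 0.96 in NT seeds. Shaggy-related kinase alpha (gene_84295), from the family that holds those factors back, was called lower, at 3.41 in DS10:A4a seeds and 6.18 in NT seeds. The remaining calls were zeatin O-glucosyltransferase-like genes, gene_68035 on 8 fragments in DS10:A4a seeds and 0 in NT seeds, and gene_68055 on 0 and 7 in the same order. No GID2, GAMYB or SPINDLY gene was in the A4a tables.

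The parental origin of the members, as the species of the best match, did not separate the directions. N. sylvestris made up 56.0% of higher and 58.3% of lower members with a match to either parent, beside 53.3% and 53.6% of all genes. Of 22 products with listed genes matched to both parents, 7 had all genes in 1 direction and 15 had genes in both. Products with all genes in 1 direction included gibberellin 2-beta-dioxygenase 2 and cytokinin dehydrogenase 5, lower in DS10:A4a seeds, and GID1B, GASA 6 and histidine kinase 5, higher. No gene of GASA 6 or histidine kinase 5 was called, so the direction of each single gene lies within counting error. The genes of a product were not tested together. Agreement among so few genes per product was not set against that of all products in the A4a tables.

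The A9up table held 15 members, 9 of gibberellin, 5 of cytokinin and 1 pseudo response regulator. It lists only genes higher in T in both A9 comparisons, so direction is set by the table. No DELLA, cytokinin dehydrogenase or brassinosteroid gene was among them. The counting interval called 4 members in DS10:A9 seeds (26.7%, against 21.1% of the 4753 genes in the table) and 11 in 35S:A9 seedlings (73.3%, against 42.6%). Members rested on more fragments than other genes of the seedling pair, at a median of 56 against 16. Among genes with an FPKM of 1 or more there, 10 of 11 members and 1601 of 2203 genes were called. In both comparisons 3 members were called, as were 692 of all 4753 genes.

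By their first descriptions, those 3 genes were an enzyme that inactivates gibberellin, a type A response regulator and an enzyme of gibberellin synthesis. The ARR6-like gene_71808, a type A regulator that cytokinin induces in Arabidopsis, was at an FPKM of 2.46 in DS10:A9 seeds and 0.19 in NT seeds, a log2 fold of 3.69 (1.67 to 6.79), and at 5.49 in 35S:A9 seedlings and 2.77 in NT seedlings, a log2 fold of 0.99 (0.37 to 1.62). Gibberellin 20-oxidase (gene_83238) was at 2.19 in DS10:A9 seeds and 0.73 in NT seeds, a log2 fold of 1.58 (0.65 to 2.61), and at 3.16 in 35S:A9 seedlings and 1.86 in NT seedlings, a log2 fold of 0.76 (0.17 to 1.37). Gibberellin 2-beta-dioxygenase 1 (gene_22963) was at 1.2 in DS10:A9 seeds and 0.5 in NT seeds, a log2 fold of 1.26 (0.55 to 2.07), and at 0.65 in 35S:A9 seedlings and 0.27 in NT seedlings, a log2 fold of 1.27 (0.37 to 2.31). The model of gene_22963 has 4026 bases, whereas the next longest of this role, gene_54407, has 1823. Its row of seedling values is described as another oxidase, of ethylene synthesis. Rows were paired by identifier, and the best match named in the seedling row differs from that of the seed row for all 15 members. It still meets the rule for 12 of them and does not for 3: gene_22963, GASA 14-like gene_64334, described there as a hypothetical protein, and gene_40451, described as a copalyl diphosphate synthase.

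The GID1B-like receptors in the A9up table were 3. The most strongly changed in seedlings was gene_18672, at an FPKM of 9.05 in 35S:A9 seedlings and 2.3 in NT seedlings, a log2 fold of 1.98 (1.55 to 2.41), whereas it was at 0.18 in DS10:A9 seeds and 0.09 in NT seeds on 4 and 2 fragments. The receptor gene_1341 was at 5.66 in 35S:A9 seedlings and 2.66 in NT seedlings, a log2 fold of 1.09 (0.48 to 1.71). It was at 4.9 in DS10:A9 seeds and 3.18 in NT seeds, a log2 fold of 0.62 (-0.01 to 1.30). This interval only just included 0 and overlapped that of seedlings. The third, gene_76260, was called in neither. Receptors were thus called in 35S:A9 seedlings for 2 of 3 genes and in DS10:A9 seeds for none, and whether the folds differ was not tested. Of the other members, APRR5 (gene_70926) was at 2.78 in 35S:A9 seedlings and 1.73 in NT seedlings, a log2 fold of 0.68 (0.19 to 1.17), and at 1.47 in DS10:A9 seeds and 0.95 in NT seeds with an interval that included 0. Ent-copalyl diphosphate synthase (gene_40451) and gene_6081, described as gibberellin 3-beta-dioxygenase 4, had at most 6 fragments in any A9 library and were called in neither. The KEGG entries of gene_6081 name a gibberellin 20-oxidase and a GMP synthase instead.

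The LOG genes of the A9up table had their highest FPKM in seedlings. The LOG1-like gene_43970 was at an FPKM of 17.8 in 35S:A9 seedlings and 5.59 in NT seedlings, a log2 fold of 1.67 (1.31 to 2.03), and LOG3-like gene_46134 at 12 and 6.8 in the same order, a log2 fold of 0.82 (0.47 to 1.18). The LOG1-like gene_67682 was at 1.68 in 35S:A9 seedlings and 0.07 in NT seedlings, a log2 fold of 4.58 (1.88 to 9.87) on 23 and 1 fragments. In seeds these genes were near the limit of detection: gene_43970 had 12 fragments in DS10:A9 seeds and 6 in NT seeds, and gene_46134 and gene_67682 were listed at 0 in NT seeds.

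CKI1-like gene_73802 showed the reverse pattern of level. It was at an FPKM of 41.0 in DS10:A9 seeds and 24.5 in NT seeds, a log2 fold of 0.74 (0.63 to 0.87), and in seedlings only at 0.11 in 35S:A9 and 0.04 in NT. In all, 10 of the 15 members were at a higher FPKM in NT seedlings than in the NT library set against DS10:A9 seeds, although these libraries were normalized separately.

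**Figure D4:**
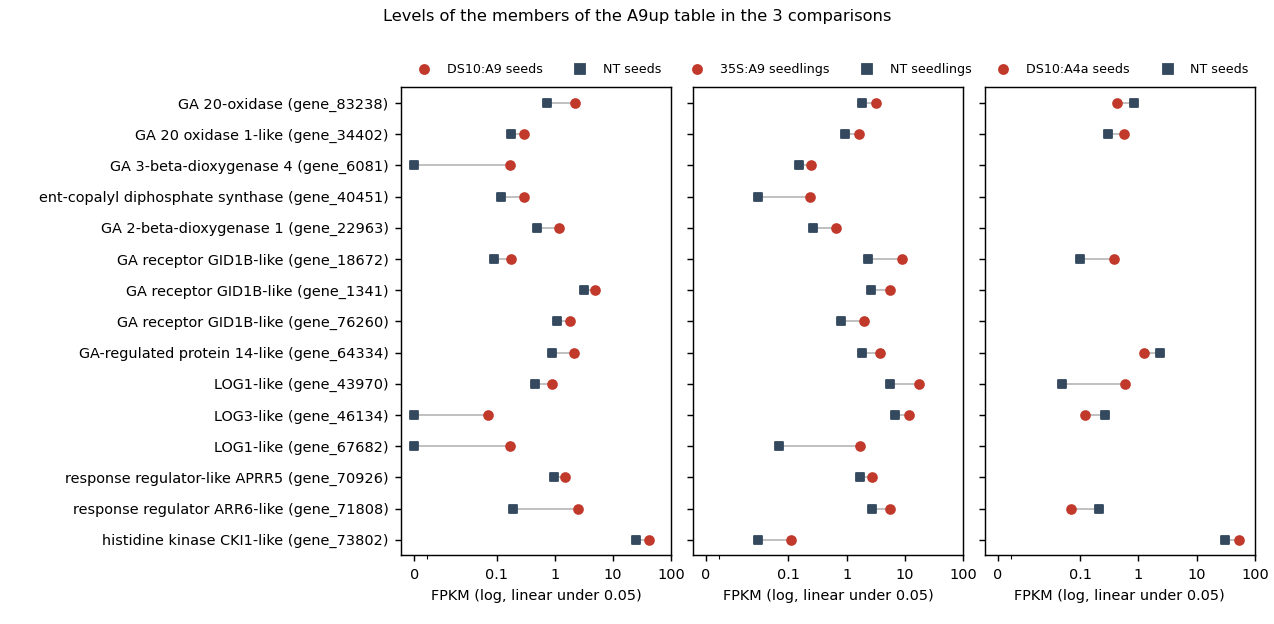
FPKM of the 15 members of the A9up table in the 3 comparisons (logarithmic axis, linear below 0.05 so that 0 can be drawn), with T as circles and NT as squares. An empty row in the right panel is a gene in neither A4a table. CKI1-like gene_73802 is near the right edge in both seed panels and near 0.1 in seedlings, and the LOG genes are highest in seedlings.

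The same identifiers could be followed in DS10:A4a seeds for 8 of the 15 members (53.3%, against 55.1% of all A9up genes), 4 higher and 4 lower. This split was near that of all genes in the A4a tables, of which 46.0% were higher. Each seed comparison has its own NT library, and values of both are given side by side. CKI1-like gene_73802 was the one gene with an interval above 0 in both seed comparisons and an FPKM of at least 1 in both. Its FPKM was 30.7 in the NT library set against DS10:A4a and 24.5 in the one set against DS10:A9, a log2 ratio of 0.32 (0.21 to 0.44), so that these NT libraries differed by more than counting error for this gene. This NT difference was smaller than the T over NT log2 folds of 0.77 with A4a and 0.74 with A9. The receptor gene_18672 and LOG1-like gene_43970 were called higher in DS10:A4a seeds and in 35S:A9 seedlings and not in DS10:A9 seeds. The remaining higher gene, the 20-oxidase 1-like gene_34402, was at 0.56 in DS10:A4a seeds and 0.3 in their NT seeds, with an interval that included 0, and was called in seedlings, at 1.65 in 35S:A9 and 0.93 in NT, with an interval that begins at 0.0012.

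The 4 members lower in DS10:A4a seeds and higher in both A9 comparisons were gene_83238, gene_71808, gene_64334 and LOG3-like gene_46134, and none of their A4a intervals left out 0. GASA 14-like gene_64334 was at an FPKM of 1.23 in DS10:A4a seeds and 2.38 in their NT seeds, whereas DS10:A9 seeds had 2.16 and their NT seeds 0.89. The NT libraries differed for this gene by a log2 ratio of 1.42 (0.08 to 3.00), which was larger than the log2 fold of either seed comparison, -0.95 and 1.28. Its interval in DS10:A9 seeds, -0.16 to 2.94, included 0 as well, so it was called in neither seed comparison. Gibberellin 20-oxidase gene_83238 was at 0.43 in DS10:A4a seeds and 0.86 in their NT seeds, whereas DS10:A9 seeds had 2.19 and their NT seeds 0.73, and here the NT log2 ratio was 0.24 (-0.81 to 1.35). ARR6-like gene_71808 had 1 fragment in DS10:A4a seeds and 3 in their NT seeds.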

How the data were processed

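RNA from seeds and seedlings was measured in 6 libraries (2 of them NT seeds). The FPKM values are as deposited: per the submitters' processing notes the authors used HISAT (0.1.6), StringTie (1.04), Bowtie2 (2.2.5) and RSEM (1.2.12). The tables write 0.01 for an FPKM of 0. Columns with the authors' own log2 folds and Poisson p-values were not used. Which NT seed library belongs to which comparison follows the tables, since the labels do not give it.

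Depths and a length offset were fitted so that FPKM of up to 6 fragments fell on whole fragments. Of values of up to 10 fragments, 86.0 to 93.6% were within 0.1 of a whole fragment. The steps were tested on simulated data. Python 3.11.15, NumPy 2.4.6, SciPy 1.17.1 and Matplotlib 3.10.9 were used. Folds have no pseudocount, and none is given against 0. Counting intervals cover counting error only.

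The A9up table repeats each gene for seeds and seedlings, and 2 identifiers with 1 row each were left out, which leaves 4753. Members, roles, lists and rules were chosen with earlier results of these data known. Named by rule were, per role and table, the 2 genes of highest mean FPKM, the 5 with the largest called fold in each direction among genes with an FPKM of at least 1, the 5 with the largest smaller fold of both A9 comparisons on the same terms, and A9up members that reach this FPKM in an A4a pair too. Other genes named were chosen after their values were seen. Markers were chlorophyll a-b binding proteins, RuBisCO small subunits (4 in the A4a tables, at a median FPKM of 0.91 in DS10:A4a and 0.25 in NT seeds, and none in A9up) and seed proteins. No sequence is shown, because 0 members matched a RefSeq protein accession. Alternatives were other intervals, depths, lengths, thresholds, descriptions and pseudocounts.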

Additional observations from a re-analysis of the deposited data

Results flagged for a closer look

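In seeds, 3 members with FPKM above 0 in all 4 libraries moved one way with A4a and the other way with A9. GASA 14-like gene_64334 had log2 folds of -0.95 with A4a and 1.28 with A9. For ARR6-like gene_71808 the folds were -1.58 with A4a and 3.69 with A9, and for gibberellin 20-oxidase gene_83238 they were -1.0 and 1.58, in the same order. Each rests on 1 library per condition, and the counting intervals of the 3 A4a folds included 0. The A9 interval of gene_64334, -0.16 to 2.94, included 0 too, so that neither of its folds was called. The direction with A9 is set by the A9up table. The difference between the comparisons was not tested.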

How the results depend on the processing

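A floor on the FPKM, which had to reach 1 in T or NT, lowered the members called higher in DS10:A4a seeds to 6, against 12 without it, and a 99% interval lowered them to 7. The members of the A9up table also in an A4a table numbered 1 when the FPKM had to reach 1 in every pair, against 8. Members called lower in DS10:A4a seeds were 12 to 17 over the alternatives, against 16, and the other counts stayed within 1.5 times. Leaving out the pseudo response regulators was chosen after seeing the data. With descriptions of any match the members were 121. Of 56 named log2 folds, a pseudocount of 0.1 left all within their counting interval and a pseudocount of 1 left 53; the other 3 kept their direction. Fewer than 10 fragments in the A4a pair stood behind 48 of the 107 members listed there. No paired analysis was possible because each comparison has 1 library per condition, and for the same reason no library could be left out.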
